A study of Mus musculus with 12 samples.

Results

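The genes described are 10 of, or grouped with, the transforming growth factor beta (TGF-beta) pathway in primary mouse chondrocytes, the cells that make cartilage matrix. They are the ligands Tgfb1, Tgfb2 and Tgfb3, Ltbp1 and Ltbp2 of the latent TGF-beta binding protein (LTBP) family, the receptors Tgfbr1, Tgfbr2 and Tgfbr3, and the intracellular proteins Smad3 and Smad7. They were found by symbol among the 57010 Ensembl gene IDs of the count tables. All 10 had 1 ID each, and all 10 were among the 14253 genes with enough counts to be tested.

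TGF-beta ligands are secreted in a latent form, with the ligand held inside its own propeptide and tied to the matrix by a latent TGF-beta binding protein. Freed ligand binds the type II receptor, which switches on the type I receptor, and the type I receptor phosphorylates SMAD2 and SMAD3, which enter the nucleus with SMAD4. In cartilage the pathway is known for holding articular chondrocytes in a matrix-producing state and for delaying their hypertrophy.

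RefSeq promoter sequences were matched by symbol for 7 of the 10 genes. The 250 bases before the annotated start (build GRCm38.p6) are shown for 4 of them. Tgfb1 and Tgfb2 are shown because both ligands were lower in both plasmid groups and their windows differ in base composition. Tgfbr1 and Tgfbr2 are shown because these receptor partners moved in opposite directions. Capitals mark matches, on either strand, to the Sp1 motif GGGCGG, the AP-1 motif TGANTCA, the SMAD motif GTCTAGAC or the NF-kB motif.
Tgfb1, chr7:25686752-25687001 on the plus strand: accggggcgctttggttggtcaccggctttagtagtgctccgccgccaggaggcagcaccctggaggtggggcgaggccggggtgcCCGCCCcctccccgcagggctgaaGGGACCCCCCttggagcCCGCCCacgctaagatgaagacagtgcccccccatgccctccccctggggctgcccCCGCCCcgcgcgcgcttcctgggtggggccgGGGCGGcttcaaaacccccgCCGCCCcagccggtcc
Tgfb2, chr1:186705990-186706239 on the minus strand: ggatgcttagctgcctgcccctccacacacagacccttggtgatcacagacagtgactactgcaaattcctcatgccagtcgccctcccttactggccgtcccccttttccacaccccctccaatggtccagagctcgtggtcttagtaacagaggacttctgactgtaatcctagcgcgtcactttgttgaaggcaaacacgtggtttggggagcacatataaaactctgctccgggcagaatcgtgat
Tgfbr1, the first of its listed starts, chr4:47352972-47353221 on the plus strand: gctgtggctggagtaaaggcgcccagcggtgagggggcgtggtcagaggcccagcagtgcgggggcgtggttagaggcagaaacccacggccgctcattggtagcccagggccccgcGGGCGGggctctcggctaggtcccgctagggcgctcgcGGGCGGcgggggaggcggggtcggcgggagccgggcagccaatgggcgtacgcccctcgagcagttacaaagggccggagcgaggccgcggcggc
Tgfbr2, chr9:116175364-116175613 on the minus strand: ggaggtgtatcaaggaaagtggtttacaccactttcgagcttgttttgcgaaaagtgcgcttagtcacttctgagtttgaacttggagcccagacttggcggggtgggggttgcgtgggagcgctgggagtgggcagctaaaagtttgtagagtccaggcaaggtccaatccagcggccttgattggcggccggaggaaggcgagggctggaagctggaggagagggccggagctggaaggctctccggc

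The Tgfb1 window was 75.2% G and C and held 5 matches to the Sp1 motif and 1 to the NF-kB motif, the latter 140 bases before the start. No searched motif was found in the Tgfb2 window, which was 53.6% G and C. The Tgfbr1 window (74.8% G and C) held 2 Sp1 matches, at 133 and 95 bases before the start, and the Tgfbr2 window (58.4%) held none of the 4 motifs. A window at the other listed start of Tgfbr1 was 52.8% G and C and held none of them either. Of the other members searched, Smad3, which was lower in both plasmid groups, had 2 Sp1 matches. Ltbp2, which was higher, had 2 as well, and Ltbp1, also higher, had none at either listed start. Over 32841 mouse promoter windows of the same length, 32.7% held the Sp1 motif, 6.75% the AP-1 motif, 7.25% the NF-kB motif and 0.167% the SMAD motif, and the median G and C content was 52.4%. A match describes the letters only.

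Messenger RNA was counted by poly(A)-selected sequencing in 12 libraries, 4 from each of 3 groups of primary chondrocytes whose genotype is given as wild type. The Control group carries no further description, the WT group received a wild-type plasmid, and the SIRT5F101L group a plasmid for that mutant. SIRT5 is a sirtuin of mitochondria that takes malonyl, succinyl and glutaryl groups off lysine residues. Which gene the wild-type plasmid holds is not spelled out in the labels. The age, strain and joint of the mice, the time after transfection and whether replicates came from separate animals were not given, so p-values measure the spread between these libraries, which may be technical.

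Libraries held 15095357 to 24242139 counts, and the 10 genes had between 148 (Tgfb2) and 19576 (Ltbp1) counts in a library. Sirt5 itself had 9 to 16 counts in Control libraries, 1 to 9 in WT and 9 to 19 in SIRT5F101L, so its count did not set the plasmid groups apart from Control. SIRT5F101L replicate 1 stood apart from its group. On the second principal component, which held 5.66% of the variance, it lay at 20.3, while the other SIRT5F101L libraries lay at -23.5 to -17 and the WT libraries at -1.07 to 20.1. All 10 chondrocyte markers checked (Col2a1, Acan, Sox9 and others) averaged 1 or more CPM, counts scaled to library size, in Control. Their summed level was 9144 to 11456 CPM in Control, 2816 to 2929 in WT and 2295 to 2540 in SIRT5F101L. Col2a1 made up most of this sum, and 8 of the 10 markers were called lower by edgeR in each plasmid group, where 28.1% of all genes were lower in WT and 30.7% in SIRT5F101L. Hapln1 was called higher in both (log2 fold changes 0.25 and 0.18), and Acan was called higher in WT (0.47) but not in SIRT5F101L (0.10).

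In Control chondrocytes Ltbp1 and Ltbp2 were the most abundant of the 10 transcripts and Tgfbr1 the least when CPM were divided by the length of the longest annotated transcript, an order that another length changes. Ltbp1 stood at 75.2 ± 5.1 CPM per kb (SD, n = 4) and Ltbp2 at 64.4 ± 6.38, and their ranges over libraries overlapped. Tgfb1 followed at 45.9 ± 1.63, Tgfbr2 at 42 ± 1.44 and Smad3 at 29.3 ± 1.28 CPM per kb. Smad7 (17.3 ± 1.14) and Tgfbr3 (16.2 ± 1.17) overlapped in range. Tgfb3 stood at 12.1 ± 0.903, Tgfb2 at 9.86 ± 0.644 and Tgfbr1 at 6.59 ± 0.583 CPM per kb. Per kb of median transcript length Smad3 was in place 1, Tgfb1 in place 2, Ltbp1 in place 3 and Ltbp2 in place 4, while Tgfbr1 was in place 9 and Tgfb3 in place 10.

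All 10 genes differed from Control in each plasmid group, 5 higher and 5 lower. The 3 ligands, Tgfbr2 and Smad3 were lower, and Ltbp1, Ltbp2, Tgfbr1, Tgfbr3 and Smad7 were higher. A gene was called when its p from the quasi-likelihood test of edgeR, adjusted over all genes by Benjamini and Hochberg's method, was under 0.05. The same test called 56.8% of all genes for WT against Control (28.7% higher and 28.1% lower) and 60.7% for SIRT5F101L against Control (30% higher and 30.7% lower). None of the 10 genes overlapped in level between a plasmid group and Control, which held for 53.5% of all genes in WT and 51.3% in SIRT5F101L. The members' median log2 fold change was 0.12 in WT, against -0.01 over all genes, and 0.00 in SIRT5F101L, against -0.02. Without SIRT5F101L replicate 1 all 10 were again called against Control, where 63.2% of all genes were. Both comparisons use the same 4 Control libraries, so their values for a gene are not independent. No plasmid or mock treatment is given for Control. An effect of what a plasmid encodes therefore cannot be told apart from one of transfection or handling.

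**Figure D1:**
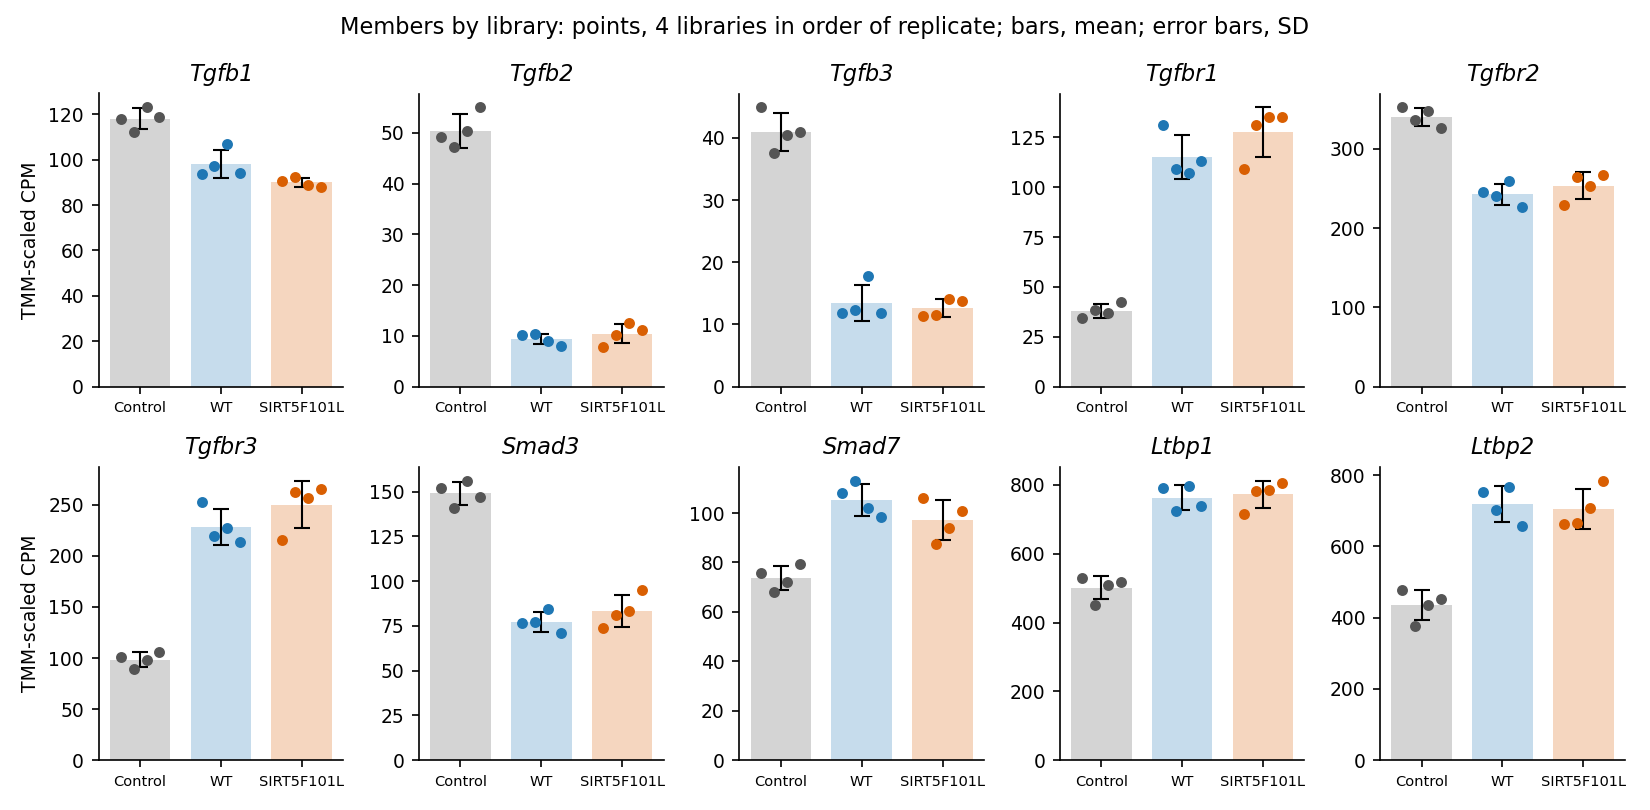
Level of each of the 10 genes by library, in TMM-scaled CPM on axes that start at 0 (points, 4 libraries per group; bars, group mean; error bars, SD). The points of both plasmid groups lie below every Control point for the ligands, Tgfbr2 and Smad3, and above every Control point for the other 5 genes.

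Among the ligands, Tgfb2 changed most. It was at 49.1, 47.2, 50.4 and 55 CPM in Control replicates 1 to 4, at 10.1, 10.3, 9.01 and 8.08 in WT, and at 7.91, 10.2, 12.5 and 11.2 in SIRT5F101L. The lowest Control library was thus well above the highest plasmid library. The level was 5.38-fold lower in WT (log2 fold change -2.43, SE 0.12, adjusted p by edgeR 3.58e-13) and 4.8-fold lower in SIRT5F101L (-2.26, SE 0.11, adjusted p by edgeR 7.77e-13). Tgfb3, the isoform best known for palate and tendon formation, was at 44.9, 37.5, 40.5 and 41 CPM in Control. In WT it was at 11.8, 12.4, 17.8 and 11.8 CPM, and in SIRT5F101L at 11.3, 11.6, 14.1 and 13.7. WT replicate 3 was the highest of the 8 plasmid libraries and still below every Control library. The log2 fold changes of Tgfb3 were -1.61 (SE 0.12, adjusted p by edgeR 3.92e-10) and -1.69 (SE 0.12, adjusted p by edgeR 1.80e-10). Exons of Tgfb3 shared 12.4% of their length with genes on the opposite strand, and the strand setting of the counting was not given, so its counts are uncertain, and how many reads this touches was not measured.

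Tgfb1, the most abundant ligand transcript per kb in every group, fell least. It was at 118.5, 112.4, 122.5 and 119 CPM in Control, at 93.8, 97.4, 107 and 94 in WT, and at 90.7, 92.3, 88.9 and 88 in SIRT5F101L. The 3 groups did not overlap, with Control highest and SIRT5F101L lowest. Against Control its log2 fold change was -0.27 (SE 0.06, adjusted p by edgeR 0.000533) in WT and -0.39 (SE 0.06, adjusted p by edgeR 7.97e-06) in SIRT5F101L.

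Ltbp1 and Ltbp2 rose, while of their relatives, picked after their values were seen, Ltbp3 rose and Ltbp4 fell. The log2 fold changes were 0.38 in WT and 0.36 in SIRT5F101L for Ltbp3, and -0.47 and -0.36 for Ltbp4. Ltbp1 binds latent TGF-beta and anchors it in the matrix. Its level was 529, 452, 508 and 517 CPM in Control, 791, 724, 796 and 739 in WT, and 716, 783, 785 and 806 in SIRT5F101L. Ltbp1 changed by 0.60 (SE 0.06, adjusted p by edgeR 7.33e-08) on the log2 scale in WT and by 0.62 (SE 0.06, adjusted p by edgeR 4.40e-08) in SIRT5F101L. Ltbp2 belongs to the same family but is not known to bind latent TGF-beta, and is a microfibril protein. It was at 478, 376, 437 and 452 CPM in Control, at 753, 702, 767 and 657 in WT, and at 664, 667, 708 and 784 in SIRT5F101L. Every plasmid library exceeded every Control library for both genes. Ltbp2 had log2 fold changes of 0.72 (SE 0.08, adjusted p by edgeR 9.27e-08) and 0.70 (SE 0.08, adjusted p by edgeR 1.53e-07), and 9.34% of its exon length overlapped a gene on the opposite strand.

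The signalling receptors changed in opposite directions. Tgfbr1, the type I receptor kinase that phosphorylates SMAD2 and SMAD3, was at 34.2, 38.4, 36.8 and 42.2 CPM in Control. It was at 131, 109, 107 and 113 CPM in WT and at 109, 131, 135 and 135 in SIRT5F101L. It thus rose 3.03-fold in WT (log2 fold change 1.60, SE 0.09, adjusted p by edgeR 2.28e-12) and 3.36-fold in SIRT5F101L (1.75, SE 0.09, adjusted p by edgeR 5.23e-13). Tgfbr2, the type II receptor that binds ligand first, was at 352, 336, 347 and 326 CPM in Control, at 245, 240, 259 and 226 in WT, and at 229, 264, 253 and 267 in SIRT5F101L. It fell by 0.49 on the log2 scale in WT (SE 0.06, adjusted p by edgeR 1.06e-06) and by 0.42 in SIRT5F101L (SE 0.06, adjusted p by edgeR 5.85e-06). With each library's trend on transcript length removed, the fall of Tgfbr2 in SIRT5F101L was 0.67, the setting that moved it most with all 12 libraries.

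Tgfbr3, also called betaglycan, presents ligand to the signalling receptors and is known above all for helping TGF-beta 2 bind. It was at 101, 89, 98.1 and 106 CPM in Control, at 253, 219, 227 and 214 in WT, and at 216, 263, 257 and 265 in SIRT5F101L. Every plasmid library lay above every Control library, and SIRT5F101L replicate 1 was the lowest of its group. Its log2 fold change was 1.21 (SE 0.08, adjusted p by edgeR 2.99e-11) in WT and 1.35 (SE 0.08, adjusted p by edgeR 5.54e-12) in SIRT5F101L. A gene on the same strand overlapped 4.54% of the exon length of Tgfbr3, and how many reads this touches was not measured.

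Of the SMADs, Smad3, which carries the signal to the nucleus, fell. It was at 152, 141, 156 and 147 CPM in Control, at 76.7, 77, 84.7 and 70.8 in WT, and at 73.9, 81, 83.2 and 95 in SIRT5F101L. Its log2 fold changes were -0.95 (SE 0.07, adjusted p by edgeR 9.27e-10) and -0.84 (SE 0.07, adjusted p by edgeR 5.26e-09). Smad7, the inhibitory SMAD that blocks the type I receptor and is itself induced by the pathway, rose. It was at 75.7, 68.1, 72.2 and 79.5 CPM in Control, at 108, 113, 102 and 98.5 in WT, and at 106, 87.3, 94.1 and 101 in SIRT5F101L. The lowest plasmid library, SIRT5F101L replicate 2, lay above the highest Control library. The log2 fold changes of Smad7 were 0.51 (SE 0.07, adjusted p by edgeR 3.58e-06) and 0.40 (SE 0.07, adjusted p by edgeR 7.15e-05). The partners Smad2 and Smad4, chosen after their values were seen, had log2 fold changes in WT of -0.0028 (adjusted p by edgeR 0.977) and 0.08 (adjusted p by edgeR 0.311), and in SIRT5F101L of 0.06 (adjusted p by edgeR 0.48) and 0.21 (adjusted p by edgeR 0.00987).

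In these bulk libraries, fewer cells of a type and less RNA per cell cannot be told apart. Summed fibroblast markers (7 genes, mostly Col1a1 and Col3a1) were at 17272 to 20466 CPM in Control, 6064 to 6888 in WT and 5916 to 6864 in SIRT5F101L. Of the 6 tested, 5 were called lower in both plasmid groups, beside the 28.1% and 30.7% of all genes, while Pdgfra was called higher (log2 fold changes 0.39 and 0.62). The 6 osteoblast markers summed to 62.6 to 72, 40.8 to 52.5 and 38.9 to 61.3 CPM, with Sp7 and Ibsp lower in both plasmid groups, Alpl and Runx2 not called, and Bglap and Dmp1 under 1 CPM in every group. Summed macrophage markers (10 genes, of which Itgam was at 0 throughout) were at 198 to 232, 135 to 156 and 144 to 186 CPM, with Cd14 higher and the 8 other tested markers lower in both plasmid groups, beside the same shares of all genes. The 6 endothelial markers summed to at most 4.87 CPM in any library. The part of these shifts in the values of the 10 genes was not tested.

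**Figure D2:**
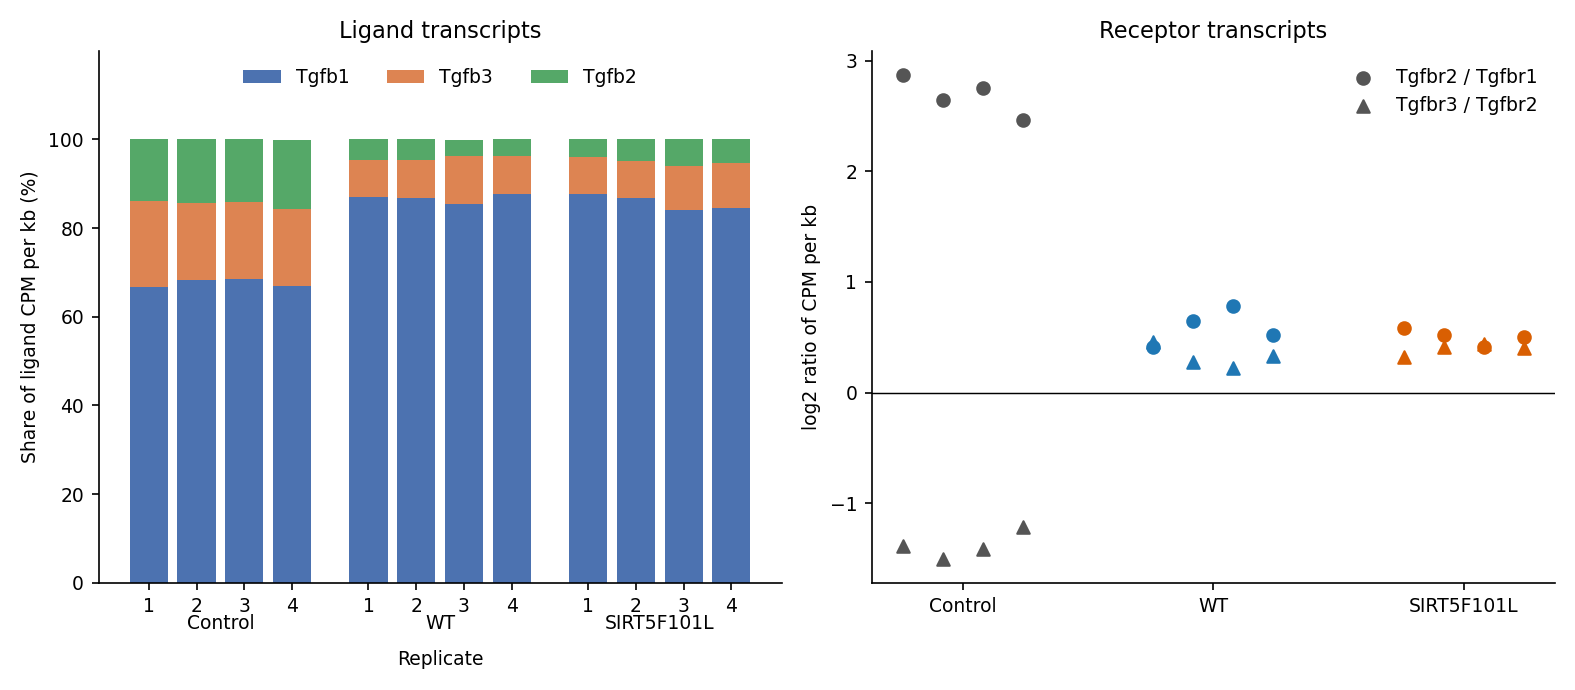
Left, share of Tgfb1, Tgfb2 and Tgfb3 in their summed CPM per kb in each library. Right, log2 ratio of receptor transcripts (circles, Tgfbr2 over Tgfbr1; triangles, Tgfbr3 over Tgfbr2; 1 point per library), where the circles drop from 2.46 to 2.87 in Control to 0.41 to 0.78 in the plasmid groups and the triangles cross 0. Both panels use the longest transcript, and per kb of median length the circles lie at 1.29 to 1.70 in Control and -0.76 to -0.39 in the plasmid groups.

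Because the genes moved unequally, the make-up of ligand and receptor transcripts differed between Control and both plasmid groups. Per kb of longest transcript, Tgfb1 made up 67.6 ± 0.911% (SD, n = 4) of ligand transcripts in Control, 86.8 ± 0.935% in WT and 85.8 ± 1.83% in SIRT5F101L. Tgfb2 made up 14.5 ± 0.709%, 4.19 ± 0.562% and 5 ± 0.887%, and Tgfb3 17.8 ± 0.954%, 9 ± 1.22% and 9.2 ± 1%. The order of these 2 isoforms depends on the length used: per kb of median transcript length, Tgfb2 made up 25.3 ± 1.04%, 7.37 ± 0.916% and 8.76 ± 1.56%, and Tgfb3 5 ± 0.318%, 2.54 ± 0.38% and 2.59 ± 0.288%. The share of Tgfb1 was then 69.7 ± 0.971%, 90.1 ± 0.724% and 88.7 ± 1.81%. The summed ligand level was 64 to 69.4 CPM per kb in Control libraries, 41.6 to 48.6 in WT and 40.2 to 41.3 in SIRT5F101L. On the log2 scale the ratio of Tgfbr2 to Tgfbr1 per kb was 2.68 ± 0.18 in Control, 0.59 ± 0.16 in WT and 0.50 ± 0.07 in SIRT5F101L. The ratio of Tgfbr3 to Tgfbr2 was -1.38 ± 0.12, 0.32 ± 0.10 and 0.39 ± 0.05. Per kb of median transcript length the ratio of Tgfbr2 to Tgfbr1 was 1.51 ± 0.18, -0.58 ± 0.16 and -0.67 ± 0.07, so which of these receptors had more transcripts in the plasmid groups depends on the length used. The ratio of Tgfbr3 to Tgfbr2 was then -0.33 ± 0.12, 1.37 ± 0.10 and 1.44 ± 0.05. With both lengths, betaglycan transcripts were fewer than type II receptor transcripts in every Control library and more numerous in every plasmid library. These ratios restate the levels above and carry no test.

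**Figure D3:**
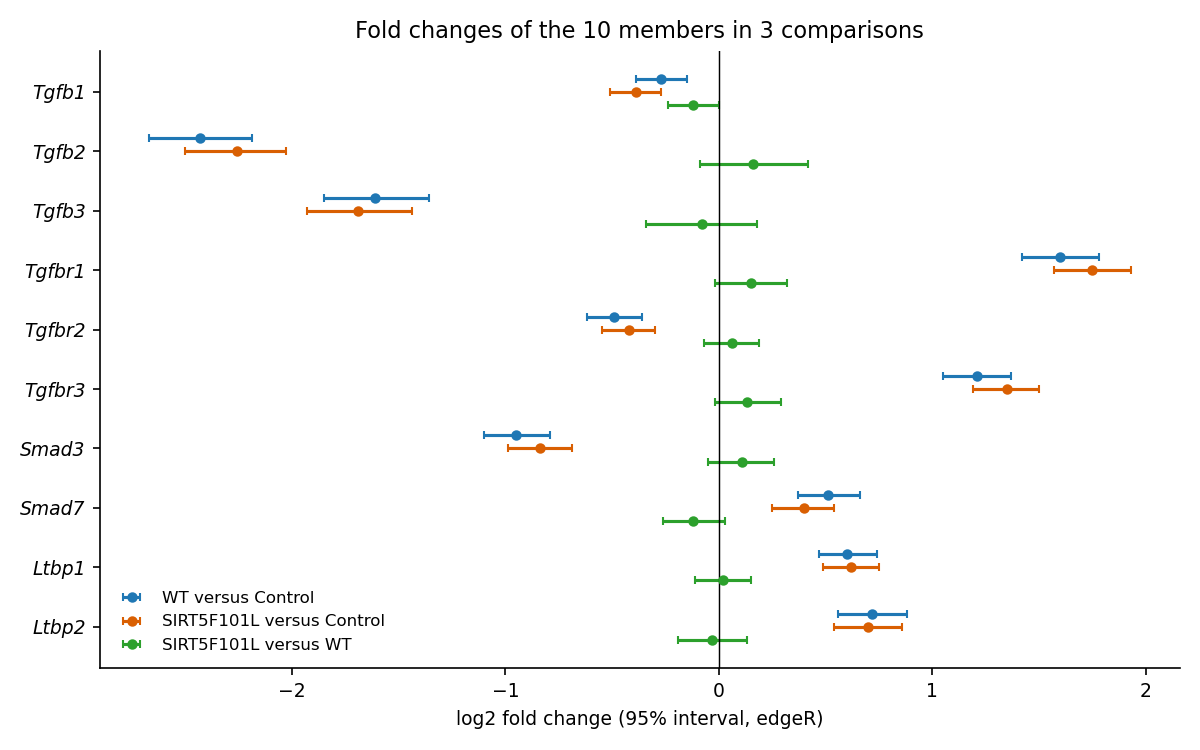
Log2 fold change of each gene with its 95% interval from edgeR, for WT against Control, SIRT5F101L against Control and SIRT5F101L against WT. The comparisons with Control lie on the same side of 0 for each gene, and the values of SIRT5F101L against WT lie between -0.12 and 0.16.

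Whether the mutant plasmid differed from the wild-type plasmid was tested in the same fit. None of the 10 genes was called by edgeR's quasi-likelihood test, where 0.0421% of all genes were called, and 1 of the 10, Tgfb1, had an unadjusted p under 0.05, as had 11.9% of all genes. DESeq2 also called 0 of the 10. The log2 difference of Tgfb1 was -0.12 (95% interval -0.24 to -0.0013, adjusted p by edgeR 0.414), and its groups did not overlap, as for 4.02% of all genes. For Tgfb2 the difference was 0.16 (-0.09 to 0.42, adjusted p by edgeR 0.583) and for Tgfb3 -0.08 (-0.34 to 0.18, adjusted p by edgeR 0.825). Tgfbr1 differed by 0.15 (-0.02 to 0.32, adjusted p by edgeR 0.456), Tgfbr3 by 0.13 (-0.02 to 0.29, adjusted p by edgeR 0.473) and Tgfbr2 by 0.06 (-0.07 to 0.19, adjusted p by edgeR 0.687). The values for Smad3 were 0.11 (-0.05 to 0.26) and for Smad7 -0.12 (-0.26 to 0.03). For Ltbp1 and Ltbp2 they were 0.02 (-0.11 to 0.15) and -0.03 (-0.19 to 0.13). Differences within these intervals are not excluded.

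The comparison of the plasmids depended on SIRT5F101L replicate 1, which had the lowest level of its group for Tgfb2, Tgfb3, Tgfbr1, Tgfbr2, Tgfbr3, Smad3, Ltbp1 and Ltbp2. Without it, Tgfbr1 was at 134 ± 1.97 CPM (SD, n = 3) and Tgfbr3 at 262 ± 4.07. Both were then called higher in SIRT5F101L than in WT, by 0.22 (SE 0.07, adjusted p by edgeR 0.0267) and 0.20 (SE 0.06, adjusted p by edgeR 0.0273) on the log2 scale. In that fit 15.2% of 14528 genes were called, so 2 of 10 is near the background. In the same fit 3 of the 10 chondrocyte markers (Col2a1, Acan and Col9a1) were called lower in SIRT5F101L than in WT, and the list's median log2 difference was -0.27. With all libraries edgeR called 0 of those 10 markers, beside 0.0421% of all genes. An unadjusted p under 0.05 was found for 6 of them, beside 11.9% of all genes. DESeq2 called 3 of them and 38 genes in all. The part of this shift in the receptor values was not tested. When each library's trend on transcript length was removed as well, Tgfbr1 was at 0.12 (adjusted p by edgeR 0.263) and Tgfbr3 at 0.09 (adjusted p by edgeR 0.4), while Smad7 was called lower (-0.20, adjusted p by edgeR 0.0343).

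Other genes of the pathway were followed in 4 lists, written with earlier results of these data known. In the counts for these lists, genes that rose or fell were those called by edgeR. Of all genes, 28.7% were called higher and 28.1% lower in WT, and 30% and 30.7% in SIRT5F101L. In the list of ligand storage and activation, 17 of 19 genes were tested; 6 rose and 7 fell in WT (median log2 fold change -0.10) and 7 rose and 8 fell in SIRT5F101L (median -0.01). Itgb3 and Itgav, subunits of an integrin that binds the latent propeptide, rose by 4.17 and 1.10 in WT and by 4.20 and 1.23 in SIRT5F101L on the log2 scale. Itgb3 went from 8.38 ± 2.1 CPM (SD, n = 4) in Control to 150 ± 8.53 and 153 ± 4.85. Thbs1, a matrix glycoprotein that can activate latent TGF-beta, fell from 16557 ± 1449 to 6542 ± 574 and 6579 ± 593 CPM. Fbn2, a fibrillin of the scaffold to which latent complexes attach, had log2 fold changes of -4.22 and -4.03.

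Of the receptor partners, 17 of 18 were tested and Vasn was listed at 0. In WT 7 rose and 6 fell (median 0.13), and in SIRT5F101L 8 rose and 4 fell (median 0.06). Pmepa1 and Ldlrad4, membrane proteins that keep SMADs from the type I receptor, rose by 0.67 and 0.62 in WT and by 0.58 and 0.75 in SIRT5F101L. Acvrl1, a further type I receptor, had log2 fold changes of -1.06 and -1.17, and Bambi, a decoy receptor without a kinase, of -1.05 and -1.30.

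Among SMADs and their regulators, 18 of 20 were tested. In WT 8 rose and 4 fell (median 0.16), and in SIRT5F101L 11 rose and 4 fell (median 0.31). The nuclear corepressors Skil and Tgif1, which limit SMAD-driven transcription, rose by 1.55 and 1.23 in WT and by 1.63 and 1.21 in SIRT5F101L. The log2 fold changes of Ski, a relative of Skil, were -0.38 in WT and -0.33 in SIRT5F101L. Those of the inhibitory Smad6, which acts mainly on bone morphogenetic protein signals, were -0.92 and -0.98.

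Genes known to be induced by TGF-beta went both ways. Of 34 such genes 31 were tested, with Timp1, Timp3 and Cdkn2b listed at 0. All IDs of chromosomes X and Y were listed at 0 too, so a listed 0 need not mean no expression. In WT 13 rose and 16 fell (median -0.26), and in SIRT5F101L 13 rose and 15 fell (median -0.09). Ankrd1 rose 8.68-fold in WT and 7.98-fold in SIRT5F101L, and Il11 rose by 2.70 and 2.66 on the log2 scale. Postn, a matrix protein, had log2 fold changes of -3.70 and -3.31, and Acta2, smooth muscle actin, of -2.52 and -2.80. Ccn2, a matrix-associated growth factor that was picked after its values were seen, rose by 0.56 in WT and by 0.57 in SIRT5F101L on the log2 scale. The lowest point of this list is Eln, likewise picked after its values were seen, with at most 8 counts in a WT library and 3 in a SIRT5F101L library, so its fitted size is uncertain. Col1a1 and Col3a1 are also among the fibroblast markers above. In the 4 lists 76.5%, 76.5%, 66.7% and 93.5% of tested genes were called in WT and 88.2%, 70.6%, 83.3% and 90.3% in SIRT5F101L, beside the 56.8% and 60.7% of all genes.

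**Figure D4:**
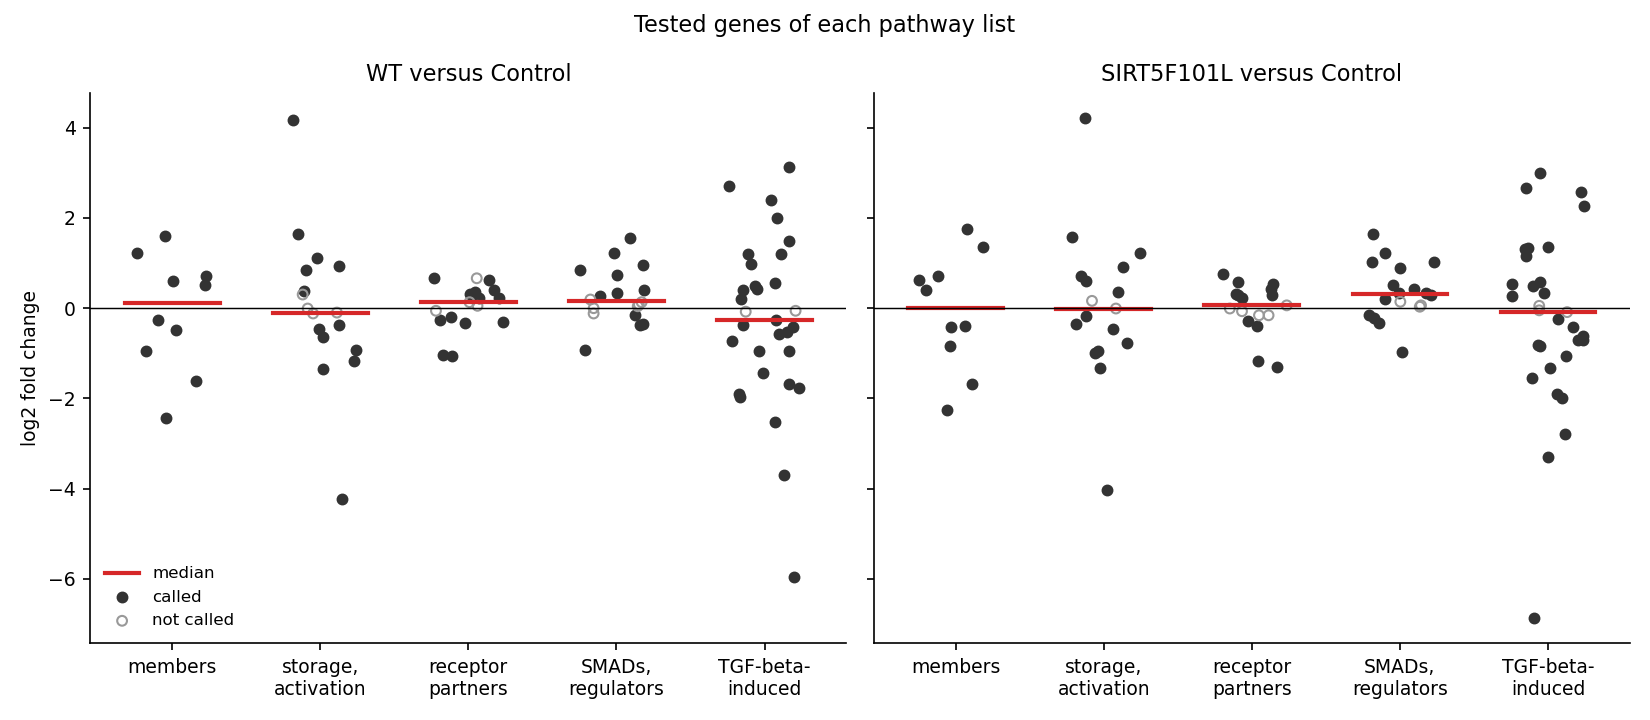
Log2 fold change of every tested gene of the 10 members and of the 4 pathway lists, for WT against Control and SIRT5F101L against Control (filled, called by edgeR; open, not called; red line, median). Horizontal scatter within a list is arbitrary. In each list genes lie on both sides of 0.

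Between the plasmid groups edgeR called 0 genes of these lists. An unadjusted p under 0.05 was found for 2 of 17 storage and activation genes, 0 of 17 receptor partners, 0 of 18 SMADs and regulators and 7 of 31 induced genes, beside 11.9% of all genes. DESeq2 called 2 of the 31 induced genes and 0 in the other lists, and 38 genes in all. Without SIRT5F101L replicate 1, edgeR called 5 of 17, 3 of 17, 6 of 18 and 6 of 31 genes of the 4 lists, beside 15.2% of all genes.

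Over the 12 libraries, the genes whose log2 CPM followed a member most closely were taken from 9790 genes averaging 5 CPM or more. For Tgfb2 they were Reck (Pearson r 0.996), Fndc1 (0.995) and Sned1 (0.995), and for Tgfbr1 they were Pde1a, Slc39a10 and Ttc39b (0.997 each). For Smad3 they were Samd14 (0.992), Sept8 (0.990) and Slc40a1 (0.990). The closest genes to Smad7 were Relt (0.983), Brd2 (0.974) and Irf2bp2 (0.969), and the closest to Tgfb1 was Zfp637 (0.969). Nearest to Tgfbr3 was Flrt2 (0.999), to Tgfbr2 Zfp521 (0.991), to Tgfb3 Lsm14a (0.990), to Ltbp1 Abca2 (0.996) and to Ltbp2 Fbln2 (0.991). The points share libraries and fall into a Control cluster and a plasmid cluster, so these values describe likeness only.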

How the data were processed

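Per the labels' protocols, mRNA was captured on oligo-dT beads and sequenced as paired-end reads. The submitters' processing notes name HISAT2 (2.2.1), HTSeq (2.0.2), DESeq2 (1.38.3) and build GRCm39, without roles. The authors deposited 1 table per library, with raw counts as whole numbers for each Ensembl gene ID and no header; the authors' annotation and strand setting are not given in the sources used here. All IDs of chromosomes X and Y and of the mitochondrion were listed at 0.

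Symbols came from a supplied table (52029 of 57010 IDs). Transcript lengths and exon overlaps came from GENCODE M21, and promoters from RefSeq, both on GRCm38, another build than the authors' notes name. Counts were scaled by TMM and fitted in edgeR 4.0.16 (R 4.3.3) with a mean per group over 12 libraries (9 residual degrees of freedom), after its expression filter, with Benjamini-Hochberg adjustment over 14253 genes. CPM are TMM-scaled. The standard error is the log2 fold change divided by the square root of F. Total counts of 15095357 to 24242139 make 1 count worth 0.0413 to 0.0662 CPM before scaling. No pair of libraries was identical, and counts within groups differed by 3.51 to 30.3 times sampling noise (mean chi-square over genes with at least 20 counts). Simulated data for WT against Control held 14032 tested genes, of which 97 were changed by 1 on the log2 scale and 97 by 0.5. Of these 87.6% and 74.2% were called, with 6.55% false among calls. Far more genes were called in the data (56.8%), and no simulated library was made to stand apart. These shares therefore need not hold for the data.

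The members and lists were chosen with earlier results of these data known. Named besides the members are, per list, the 2 highest and 2 lowest called fold changes against Control among genes averaging 5 CPM or more. Further list genes named in the report or the closing section are said there to have been picked after their values were seen. Alternatives were RLE and upper-quartile scaling, other filters, a robust prior, 8-library fits, DESeq2 1.42.0, a loess trend on length (span 0.5) as offset, and leaving out each library. The trend on length without SIRT5F101L replicate 1 was added after seeing the data. Protein sequences were not used here.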

Additional observations from a re-analysis of the deposited data

Results flagged for a closer look

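Levels of the 10 genes were screened in each group of 4 libraries for a library far from the other 3, with Dixon's test at its 95% critical value, where the ratio is the gap divided by the group's range. Of 30 groups screened 3 passed, where chance gives 1.5. WT replicate 3 was high in Tgfb3, at 17.8 CPM against 11.8 to 12.4 in the other WT libraries (ratio 0.891). SIRT5F101L replicate 1 was low in Tgfbr1, at 109 CPM against 131 to 135 (ratio 0.861), and in Tgfbr3, at 216 CPM against 257 to 265 (ratio 0.842). Its counts differed from those of the other SIRT5F101L libraries by 24.7 to 30.3 times sampling noise, where all other pairs within groups differed by 3.51 to 13.6 times.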

How the results depend on the processing

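Against Control, each of the 10 genes kept its direction and its call in all 16 alternatives for WT and all 17 for SIRT5F101L. Tgfb1 ranged from -0.32 to -0.24 in WT and Smad7 from 0.25 to 0.44 in SIRT5F101L. Also in SIRT5F101L, Ltbp1 ranged from 0.41 to 0.66, Ltbp2 from 0.47 to 0.74 and Tgfbr2 from -0.69 to -0.38. Other scalings shifted the median of all genes by at most 0.05 on the log2 scale. Between the plasmid groups, leaving out 1 library gave 0 to 2 of the 10 genes called, with 2 only without SIRT5F101L replicate 1, and 0 to 2213 of all genes. With the length trend also removed these were 1 and 1206. Of all genes 354 were called without the expression filter, 20 with the length trend as offset, 38 by DESeq2, 2 with a robust prior and 2 with 8 libraries, against 6 as reported. The cause was not tested. Uncalled differences changed sign for Tgfb3 (0.08 without WT replicate 3, and -0.14 to 0.08 over all libraries left out in turn), Tgfbr2 (-0.04 with the length trend as offset, -0.06 without SIRT5F101L replicate 1 as well) and Ltbp1 (-0.06 and -0.08 in those settings, -0.01 without WT replicate 2, -0.0033 without SIRT5F101L replicate 4). They also did for Ltbp2 (0.0026 without WT replicate 3, 0.0015 without SIRT5F101L replicate 1). Tgfb2 kept its sign but ranged from 0.06 without SIRT5F101L replicate 3 to 0.28 without SIRT5F101L replicate 1. Smad3 ranged from 0.04 without SIRT5F101L replicate 4 to 0.16 without SIRT5F101L replicate 1, and neither gene was called in these fits. Dividing by the median transcript length moved 27 of 30 levels per kb by more than their SD, so levels between genes are less certain than changes of a gene. No paired analysis was possible because the titles number the 12 libraries straight through; replicates 1 to 4 were numbered here in accession order within a group, which names a library and pairs none.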

Other observations

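Among the SMAD regulators, the ubiquitin ligases were picked out after their values were seen. In WT the log2 fold changes were 0.96 for Smurf1, 0.40 for Smurf2, 0.74 for Nedd4l, 0.85 for Wwp1, 0.26 for Trim33 and 0.19 for Rnf111. In SIRT5F101L they were 1.02, 0.52, 0.88, 1.01, 0.33 and 0.34. Each was called by edgeR except Rnf111 in WT (adjusted p by edgeR 0.134), where 28.7% of all genes were called higher in WT and 30% in SIRT5F101L. The following genes of ligand storage and activation were also picked after their values were seen. Lrrc32, which displays latent TGF-beta on the cell surface, rose by 0.93 and 0.91, and Furin, the protease that cuts the ligand precursors, by 0.84 and 0.71. Itgb6, a further integrin subunit that binds the latent propeptide, rose by 1.65 and 1.58. Of the other beta subunits of that list beside Itgb3, Itgb8 had log2 fold changes of 0.30 (not called) and 0.61 (called), and Itgb5 of -0.12 (not called) and -0.17 (called). Genes of the same list were lower too: the proteases Mmp2 (-1.17 and -0.96), Mmp14 (1.89-fold and 2-fold lower) and Bmp1 (-0.37 and -0.46) and the matrix glycoprotein Emilin1 (-0.63 and -0.77), each called by edgeR in both plasmid groups.

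Of the 31 tested TGF-beta-induced genes, 16 were called lower in WT and 15 in SIRT5F101L, and 13 were called higher in each. Of all genes 28.1% and 30.7% were called lower, and 28.7% and 30% higher. The lower genes included 3 fibrillar collagen chains, of which Col1a1 and Col3a1 are also among the fibroblast markers. The log2 fold changes of Col1a1, Col1a2 and Col3a1 were -1.78, -1.90 and -1.44 in WT and -1.90, -1.99 and -1.33 in SIRT5F101L. Hmga2, a chromatin protein, rose by 2.39 and 2.57. Bhlhe40, a transcriptional repressor, rose 2.3-fold and 2.51-fold. These genes too were chosen after their values were seen.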
